A study of Arabidopsis thaliana with 24 samples.

Results

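The genes described here are the 4 members of subgroup IVc of the basic helix-loop-helix (bHLH) transcription factors in Arabidopsis thaliana. They are ILR3 (AT5G54680, probe set 248171_at, chromosome 5), bHLH34 (AT3G23210, 257916_at, chromosome 3), bHLH104 (AT4G14410, 245331_at, chromosome 4) and bHLH115 (AT1G51070, 245746_at, chromosome 1). They were taken by locus from the annotation of the Affymetrix ATH1 array, which gives each locus 1 probe set of its own, so the members are 4 of the 17810 probe sets tested. Transcripts were measured in roots and leaves of wild type Col plants and of the rglg1 rglg2 double mutant in the same ecotype, which is mutated in a pair of genes for RING-domain ubiquitin ligases. From an age of 10 days, plants spent 3 days on 1 of 2 media, which held either 40 µM FeEDTA (+Fe) or 100 µM of a pyridyl diphenyl triazine sulfonate that chelates iron (-Fe), and all were harvested at 13 days. All plants were kept at 21 °C in continuous light. Combining organ, genotype and medium gave 8 groups, each with 3 arrays that the labels call biological replicates. RGLG1 and RGLG2 transcripts were not analysed here, so the genotype was taken from the labels alone.

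bHLH proteins bind DNA as dimers. The subgroup IVc proteins form dimers with one another and, with URI of the neighbouring subgroup IVb, switch on the subgroup Ib bHLH genes and PYE when iron is short. The subgroup Ib proteins in turn partner FIT, which drives the iron uptake genes of the root. BRUTUS, an iron-binding ubiquitin ligase, binds members of subgroup IVc and marks ILR3 and bHLH115 for degradation, a control that acts on the protein. ILR3 was first found in a screen for resistance to an auxin conjugate, and in a complex with PYE it also represses iron storage genes such as the ferritins.

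Values are log2 signals, and each probe set had been centred so that its median over the 24 arrays was 0. A value of 0 is therefore the middle of that gene's own range, and levels cannot be compared between genes or set against the background of the array. A difference of 1 is a change of 2-fold. Differences are given with the standard error of limma, group means with the SD of 3 arrays, and a member is called changed at an adjusted p under 0.05 (Benjamini-Hochberg over all 17810 probe sets). Whether the arrays of different groups or organs overlap is given as a description only. With 3 arrays per group, groups can fall apart without a change in the gene. The share of all probe sets without overlap is not given here, so a lack of overlap sets no member apart.

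The tissues matched their labels. The mean of 5 measured leaf markers, genes of photosynthesis and chlorophyll synthesis, lay between -2.83 and -1.85 on the root arrays and between 1.77 and 2.52 on the leaf arrays. The mean of 4 measured root markers lay between 1.50 and 2.01 on the root arrays and between -1.90 and -1.55 on the leaf arrays. Among these root markers AGL19 depended on the genotype. Its mean on +Fe and -Fe was 1.51 and 1.77 in Col roots but 0.20 and 0.30 in mutant roots. The leaf group means of AGL19 lay between -0.45 and -0.09, so it separated the organs less in the mutant. Replicates of a group correlated at 0.933 to 0.984 over all probe sets in roots and at 0.944 to 0.971 in Col leaves. In mutant leaves the lowest correlation was 0.880 on +Fe and 0.852 on -Fe, and replicate 3 was the array that stood apart on both media.

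All 4 genes were higher in roots than in leaves of Col plants. On +Fe, bHLH115 was 2.95-fold and bHLH104 1.93-fold higher in roots, bHLH34 was 1.35-fold higher and ILR3 1.28-fold. bHLH115 had the largest difference of the 4 in each genotype and on each medium, and bHLH104 the next. The tissue took up 94.6% of the variance of bHLH115 and 93.9% of that of bHLH104 over the 24 arrays, against 65.5% for bHLH34 and 60.5% for ILR3. In whole organs, fewer cells that carry a transcript and less of it per cell cannot be told apart. A measure of RNA quality also had a lower mean in leaves than in roots, except in the mutant on +Fe. It was the mean difference between 5′ and 3′ control probe sets, over 6 pairs for the transcripts of actin, GAPDH and ubiquitin, and falls when RNA is degraded. The measure was 0.20 ± 0.10 in roots and 0.06 ± 0.06 in leaves of Col on +Fe, and 0.18 ± 0.10 and 0.05 ± 0.04 on -Fe. In the mutant it was 0.01 ± 0.14 in roots and 0.01 ± 0.10 in leaves on +Fe, and 0.21 ± 0.02 and -0.13 ± 0.07 on -Fe. Its part in the differences between the organs was not tested.

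**Figure D1:**
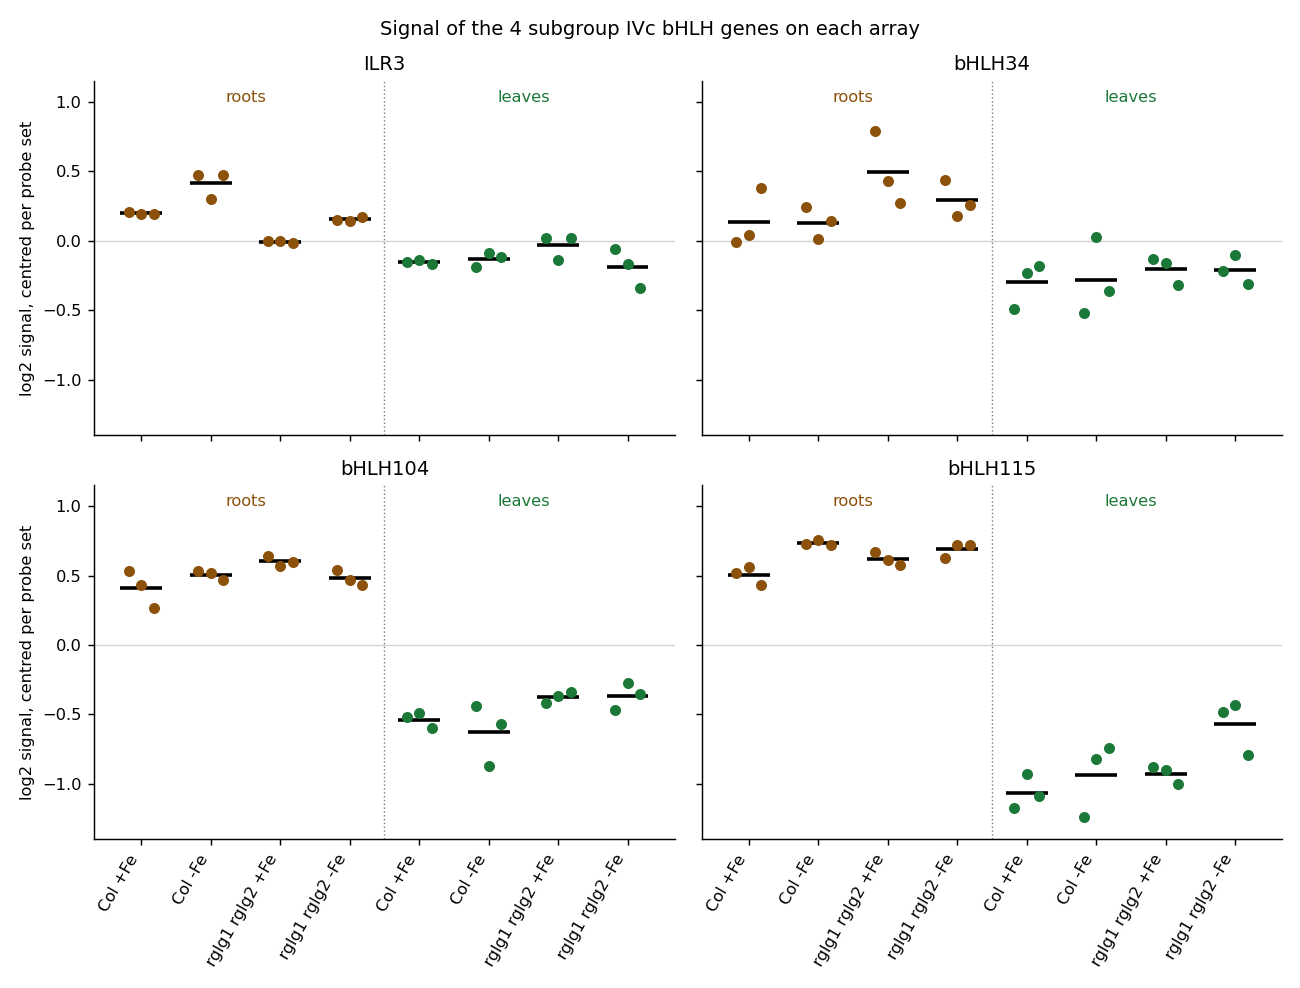
Log2 signal, centred per probe set, of ILR3, bHLH34, bHLH104 and bHLH115 on each of the 24 arrays (points, 3 per group) with the group mean (black bar), roots on the left and leaves on the right of each panel. For bHLH104 and bHLH115 every root array lies above every leaf array, while root and leaf arrays of ILR3 and bHLH34 overlap. How many of all probe sets keep the organs apart in this way is not given here.

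bHLH115 is one of the members that BRUTUS binds. Its values in Col roots were 0.52, 0.56 and 0.43 on +Fe and 0.73, 0.76 and 0.72 on -Fe, and in mutant roots 0.67, 0.61 and 0.58 on +Fe and 0.63, 0.72 and 0.72 on -Fe. In Col leaves they were -1.17, -0.93 and -1.09 on +Fe and -1.24, -0.82 and -0.74 on -Fe, and in mutant leaves -0.88, -0.90 and -1.00 on +Fe and -0.48, -0.43 and -0.79 on -Fe. The 12 root arrays, with a median of 0.65, lay far above the 12 leaf arrays, with a median of -0.89, and the lowest root array (0.43) was well clear of the highest leaf array (-0.43). Leaves minus roots gave -1.56 ± 0.11 in Col on +Fe (adjusted p = 4.63e-11) and -1.67 in Col on -Fe (adjusted p = 1.48e-11). In the mutant the difference was -1.55 on +Fe (adjusted p = 6.06e-11) and -1.26 on -Fe (adjusted p = 2.01e-09). The smallest difference, 2.39-fold in the mutant on -Fe, thus went with the highest leaf mean of the gene, -0.57 ± 0.198 in mutant leaves on -Fe.

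bHLH104 forms a dimer with ILR3. Its values in Col roots were 0.53, 0.43 and 0.27 on +Fe and 0.53, 0.52 and 0.47 on -Fe, and in mutant roots 0.64, 0.57 and 0.60 on +Fe and 0.54, 0.47 and 0.43 on -Fe. In Col leaves they were -0.52, -0.49 and -0.60 on +Fe and -0.44, -0.87 and -0.57 on -Fe, and in mutant leaves -0.42, -0.37 and -0.34 on +Fe and -0.47, -0.27 and -0.35 on -Fe. Here too the tissues did not overlap, with a lowest root array of 0.27 and a highest leaf array of -0.27. Leaves minus roots gave -0.95 ± 0.10 in Col on +Fe (adjusted p = 1.3e-08), -1.13 in Col on -Fe (adjusted p = 6.99e-10), -0.98 in the mutant on +Fe (adjusted p = 7.62e-09) and -0.84 in the mutant on -Fe (adjusted p = 8.88e-08). The difference was 1.79-fold to 2.19-fold, and the lower bound of that range again came from the mutant on -Fe.

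bHLH34, a close relative of bHLH104, had the widest spread between replicates of the 4. Its values in Col roots were -0.01, 0.04 and 0.38 on +Fe and 0.24, 0.01 and 0.14 on -Fe, and in mutant roots 0.79, 0.43 and 0.27 on +Fe and 0.44, 0.18 and 0.26 on -Fe. In Col leaves they were -0.49, -0.23 and -0.18 on +Fe and -0.52, 0.03 and -0.36 on -Fe, and in mutant leaves -0.13, -0.16 and -0.32 on +Fe and -0.22, -0.10 and -0.31 on -Fe. The tissues overlapped by a narrow margin, since the lowest root array, Col on +Fe, was at -0.01 and the highest leaf array, Col on -Fe, at 0.03. In the mutant, leaves minus roots gave -0.70 on +Fe (adjusted p = 0.000228) and -0.50 on -Fe (adjusted p = 0.0045). In Col the difference was -0.44 ± 0.15 on +Fe (adjusted p = 0.0114) and -0.42 on -Fe (adjusted p = 0.0155). Both Col calls were lost after quantile normalization, with -0.35 and an adjusted p of 0.052 on +Fe and -0.33 and an adjusted p of 0.0626 on -Fe. The +Fe call was also lost without root replicate 3 (-0.32, adjusted p = 0.0786) or leaf replicate 1 (-0.34, adjusted p = 0.0666), and the -Fe call without root replicate 1 (adjusted p = 0.0621), leaf replicate 1 (adjusted p = 0.102) or leaf replicate 3 (adjusted p = 0.052).

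ILR3 had the smallest difference between the organs of the 4 genes, except in Col on -Fe, where that of bHLH34 was smaller. Its values in Col roots were 0.21, 0.19 and 0.19 on +Fe and 0.47, 0.30 and 0.47 on -Fe, and in mutant roots 0.00, 0.00 and -0.02 on +Fe and 0.15, 0.14 and 0.17 on -Fe. In Col leaves they were -0.15, -0.14 and -0.17 on +Fe and -0.19, -0.09 and -0.12 on -Fe, and in mutant leaves 0.02, -0.14 and 0.02 on +Fe and -0.06, -0.17 and -0.34 on -Fe. Root and leaf arrays of Col and of the mutant on -Fe did not overlap, whereas on +Fe the mutant's root and leaf arrays fell in the same range. Leaves minus roots gave -0.35 ± 0.08 in Col on +Fe (adjusted p = 0.000658), -0.55 in Col on -Fe (adjusted p = 4.04e-06) and -0.34 in the mutant on -Fe (adjusted p = 0.000822). In the mutant on +Fe the difference was -0.03, with a 95% confidence interval from -0.20 to 0.14, and was not called (adjusted p = 0.794).

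**Figure D2:**
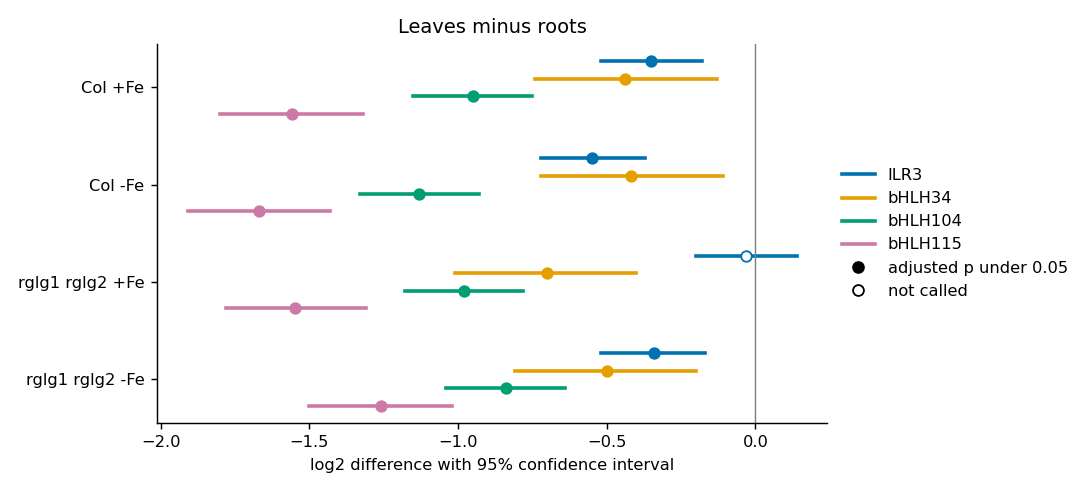
Log2 difference, leaves minus roots, with its 95% confidence interval for the 4 genes in Col and rglg1 rglg2 on each medium (filled points, adjusted p under 0.05). Of the 16 differences 15 were called, all lower in leaves, and that of ILR3 in the mutant on +Fe, at -0.03, was not.

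Counted over the members, 4 of 4 were called lower in leaves in Col on both media and in the mutant on -Fe, and 3 of 4 in the mutant on +Fe. Among all probe sets 38.6% were called lower in leaves in Col on +Fe and 38.3% on -Fe, and 36.5% and 39% in the mutant. A fall in leaves was thus common on this array. The median difference of the members was -0.69 in Col on +Fe and -0.84 on -Fe, beside -0.07 and -0.08 over all probe sets. In the mutant it was -0.84 on +Fe and -0.67 on -Fe, beside -0.04 and -0.11. Rises and falls cancel in the median over all probe sets, so it does not show how large a usual difference was. In Col on +Fe the share of probe sets with a smaller difference in either direction was 33.9% for ILR3 and 40% for bHLH34. It was 63.1% for bHLH104 and 76.3% for bHLH115. The highest such share of any member was 78.1%, for bHLH115 in Col on -Fe.

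URI, the subgroup IVb partner of these proteins, ran the other way. It was higher in leaves by 0.81 in Col on +Fe (adjusted p = 4.15e-06), 0.63 in Col on -Fe (adjusted p = 9.37e-05), 0.75 in the mutant on +Fe (adjusted p = 1.2e-05) and 0.54 in the mutant on -Fe (adjusted p = 0.000536). PYE, the other measured gene of subgroup IVb, a repressor of iron distribution and storage genes, was higher in leaves on -Fe, by 0.50 in Col (adjusted p = 0.00215) and 0.54 in the mutant (adjusted p = 0.0011). On +Fe PYE differed by -0.16 in Col and 0.18 in the mutant, neither of them called.

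Within a tissue the order of the 8 group means differed between the genes. For ILR3 the 4 root groups stood in the order Col on -Fe (0.41 ± 0.098), Col on +Fe (0.20 ± 0.013), mutant on -Fe (0.15 ± 0.019) and mutant on +Fe (-0.01 ± 0.010), and no neighbours among them shared any part of their range. Below these, each leaf group of ILR3 overlapped the next, and the highest of them, mutant on +Fe (-0.03 ± 0.090), overlapped the lowest root group. For bHLH115 the order in roots was Col on -Fe (0.73 ± 0.021), mutant on -Fe (0.69 ± 0.049), mutant on +Fe (0.62 ± 0.047) and Col on +Fe (0.50 ± 0.065), and among these neighbours only the last 2 were apart. In leaves bHLH115 was highest in the mutant on -Fe, clear of the mutant on +Fe (-0.93 ± 0.066), which overlapped Col on -Fe (-0.94 ± 0.270), and that group overlapped Col on +Fe (-1.06 ± 0.123).

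For bHLH104 the mutant on +Fe was the highest root group (0.61 ± 0.037), apart from Col on -Fe (0.50 ± 0.034), and below that the mutant on -Fe (0.48 ± 0.056) and Col on +Fe (0.41 ± 0.127) overlapped their neighbours. In leaves its means were -0.36 ± 0.097 in the mutant on -Fe, -0.38 ± 0.041 in the mutant on +Fe, -0.54 ± 0.054 in Col on +Fe and -0.63 ± 0.219 in Col on -Fe. The genotypes did not overlap on +Fe, but they did on -Fe. All neighbours of bHLH34 within a tissue overlapped, from 0.50 ± 0.263 in mutant roots on +Fe to 0.13 ± 0.114 in Col roots on -Fe, and from -0.20 ± 0.103 to -0.30 ± 0.164 in leaves. The SD within groups was 0.072 for ILR3, 0.102 for bHLH104, 0.133 for bHLH115 and 0.184 for bHLH34, beside a median of 0.168 over all probe sets. Only 0.46% of probe sets had a smaller SD than ILR3.

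The next comparison asked whether iron deprivation changed these transcripts. No member was called in any of the 4 iron responses. In Col roots bHLH115 differed by 0.23 ± 0.08 (-Fe minus +Fe, adjusted p = 0.119) and ILR3 by 0.22 ± 0.08 (adjusted p = 0.155), while bHLH104 differed by 0.09 ± 0.08 and bHLH34 by -0.01 ± 0.14. For the first pair every -Fe array lay above every +Fe array, and the unadjusted p was 0.00974 for bHLH115 and 0.0147 for ILR3. How many of all probe sets separate in this way is not given, so the separation adds nothing to the test. The 95% confidence intervals reached from 0.07 to 0.40 for bHLH115 and from 0.05 to 0.38 for ILR3, so neither reached a change of 2-fold. Among all probe sets 5.17% were called in Col roots, and 16.8% had an unadjusted p under 0.05, as 2 of the 4 members did.

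In mutant roots, where 7.11% of all probe sets were called, ILR3 differed by 0.16 (adjusted p = 0.235), bHLH115 by 0.07, bHLH104 by -0.13 and bHLH34 by -0.20. The median of the 4 was -0.03, beside 0.15 in Col roots. The mutant arrays of ILR3 on -Fe all lay above those on +Fe, while those of bHLH115 overlapped. In Col leaves, where 1.03% of all probe sets were called, the 4 differences lay between -0.09 and 0.12. In mutant leaves, where 0.427% were called, bHLH115 differed by 0.36 ± 0.15 (95% confidence interval 0.04 to 0.68, adjusted p = 0.538) and every -Fe array of it lay above every +Fe array. The other 3 differed there by -0.16 (ILR3), -0.01 (bHLH34) and 0.01 (bHLH104). Of 19 alternative fits, 1 called bHLH34 in mutant roots (adjusted p = 0.0259) and bHLH115 in mutant leaves (adjusted p = 0.0274). In that fit arrays were weighted by their quality in limma, and it called 5097 of all probe sets in mutant roots and 1543 in mutant leaves.

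In the roots of both genotypes the leaf markers moved with the medium as well. Of the 5 measured leaf markers 4 were called lower on -Fe in Col roots and 4 in mutant roots, and their mean was -1.91 on +Fe and -2.63 on -Fe in Col and -2.06 and -2.70 in the mutant. Their part in the values of ILR3 and bHLH115 in roots was not tested.

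The third comparison set rglg1 rglg2 against Col, and again no member was called. In roots on +Fe, bHLH34 was at 0.50 ± 0.263 in the mutant and 0.14 ± 0.210 in Col, a difference of 0.36 ± 0.14 (adjusted p = 0.103). bHLH104 differed by 0.19 ± 0.08 (adjusted p = 0.152) and bHLH115 by 0.12 (adjusted p = 0.349), with the mutant arrays of both above all Col arrays. ILR3 differed in the other direction, by -0.20 ± 0.08 (adjusted p = 0.111), with all 3 mutant arrays below all 3 Col arrays. Among all probe sets 10.7% were called in this comparison and 27.5% had an unadjusted p under 0.05, as 3 of the 4 members did.

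The value of bHLH34 in roots on +Fe depended on the arrays included. It ran from 0.22 to 0.61 over the 18 alternatives, with adjusted p from 0.00266 to 0.375, and was called in 4 of them. The lowest value came without mutant replicate 1, the highest array at 0.79. bHLH34 passed the test without Col replicate 3 (0.48, adjusted p = 0.0337) and without mutant replicate 3 (0.47, adjusted p = 0.0328), and without replicates 3 of all root groups the difference was 0.59 (adjusted p = 0.0158). With arrays weighted by their quality in limma the difference was 0.61 (adjusted p = 0.00266), and in that fit ILR3 was called as well (-0.20, adjusted p = 0.0408).

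On -Fe in roots ILR3 was at 0.15 ± 0.019 in the mutant and 0.41 ± 0.098 in Col. The difference of -0.26 ± 0.08 had the lowest adjusted p of any member among the iron responses and genotype differences (0.0876) and a 95% confidence interval from -0.43 to -0.09, and all mutant arrays lay below all Col arrays. It passed the test only with array weights (-0.25, adjusted p = 0.0238). The other 3 genes differed there by 0.16 (bHLH34), -0.02 (bHLH104) and -0.04 (bHLH115), and 3.89% of all probe sets were called.

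The measure of RNA quality of these root groups, the 5′ to 3′ difference of the control transcripts, was 0.20 ± 0.10 in Col roots on +Fe and 0.01 ± 0.14 in mutant roots on +Fe, and 0.18 ± 0.10 and 0.21 ± 0.02 on -Fe. On +Fe it was lower in the mutant, and on -Fe the means of the genotypes differed by less than the SD of Col. Its part in the member values was not tested.

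In leaves on +Fe the 4 members differed between the genotypes by 0.10 to 0.16, with adjusted p from 0.383 to 0.685, while 14.4% of all probe sets were called. In leaves on -Fe, where 15.9% were called, bHLH115 differed by 0.37 ± 0.15 (95% confidence interval 0.05 to 0.69, adjusted p = 0.104) and bHLH104 by 0.27 ± 0.12 (adjusted p = 0.139). ILR3 differed by -0.06 and bHLH34 by 0.08. Mutant replicate 3 of this group stood apart from the other 2 for bHLH115, at -0.79 against -0.48 and -0.43. Over the 18 alternatives bHLH115 ran from 0.21 to 0.48 and was called in 4, and bHLH104 ran from 0.14 to 0.36 and was called in 2. Without Col replicate 1 bHLH115 differed by 0.21 (adjusted p = 0.33), and without Col replicate 2 bHLH104 differed by 0.14 (adjusted p = 0.448). Without mutant replicate 3 bHLH115 differed by 0.48 (adjusted p = 0.034), and without replicates 3 of mutant leaves on both media by 0.48 (adjusted p = 0.03). bHLH115 and bHLH104 were also called in a fit of all 24 arrays, with adjusted p of 0.0203 and 0.0449, and with array weights, with 0.018 and 0.0339. The control transcripts' 5′ to 3′ measure was -0.13 ± 0.07 in mutant leaves on -Fe and 0.05 ± 0.04 in Col leaves on -Fe, and its part in these values was not tested.

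**Figure D3:**
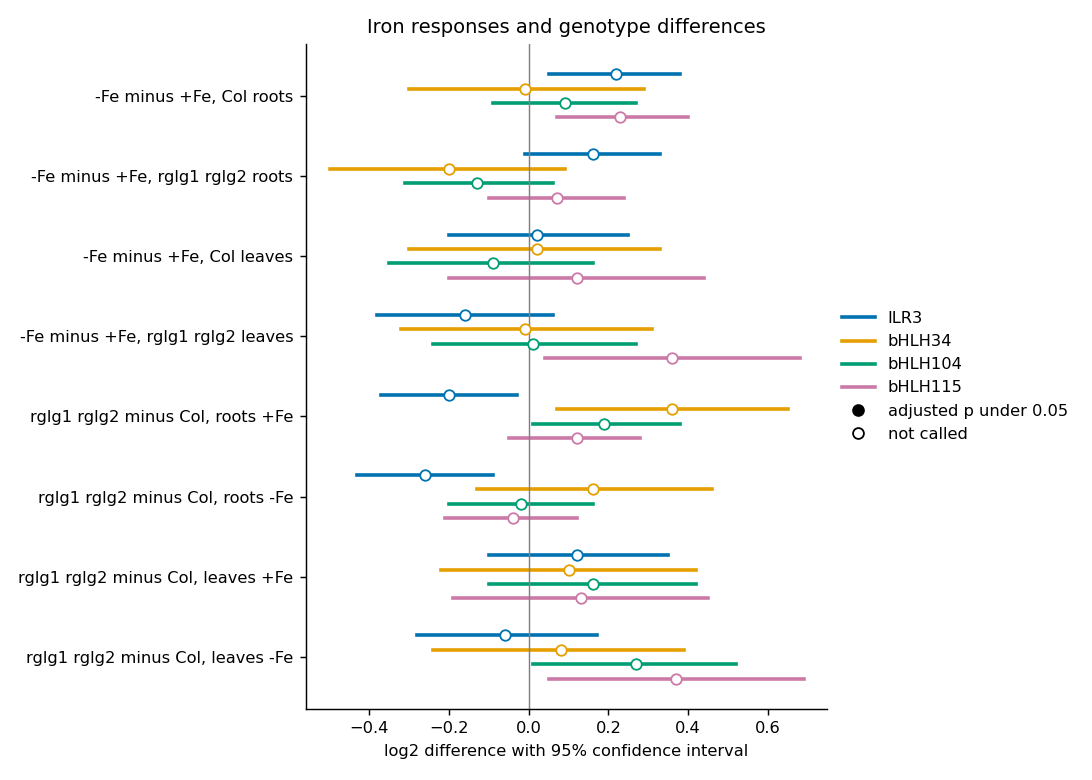
Log2 difference with its 95% confidence interval for the 4 genes in the 4 iron responses (-Fe minus +Fe) and the 4 genotype differences (rglg1 rglg2 minus Col). All points are open, since none of the 32 differences had an adjusted p under 0.05, and they lie between -0.26 and 0.37.

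Over the 4 iron responses and 4 genotype differences, 0 of the 32 member tests passed in limma, with adjusted p from 0.0876 to 0.996. An unadjusted p under 0.05 was found in 9 of the 32. Over all probe sets the share with an unadjusted p under 0.05 was 16.8% for the iron response of Col roots, 23.3% for mutant roots, 11.1% for Col leaves and 8.41% for mutant leaves. For the genotype difference it was 27.5% in roots on +Fe, 17.6% in roots on -Fe, 31.7% in leaves on +Fe and 32.9% in leaves on -Fe. The largest of these 32 differences was 1.29-fold.

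The effect of the genotype on the iron response was not called for any member in roots or leaves. In roots, where 0.0168% of all probe sets were called, the interaction was -0.06 for ILR3, -0.16 for bHLH115, -0.20 for bHLH34 and -0.22 for bHLH104 (adjusted p from 0.671 to 0.907). In leaves it lay between -0.18 (ILR3) and 0.24 (bHLH115), and no probe set of the array was called (0%). The iron response of leaves minus that of roots lay between -0.19 and 0.02 in Col, where 1.75% of all probe sets were called, and between -0.32 (ILR3, adjusted p = 0.159) and 0.29 (bHLH115, adjusted p = 0.374) in the mutant, where 1.85% were called.

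The genotype difference of leaves minus that of roots was tested after the values had been seen. On +Fe it was 0.33 ± 0.12 for ILR3 (95% confidence interval 0.08 to 0.57, adjusted p = 0.0633), and it was called without replicate 1 (adjusted p = 0.0488) or replicate 3 (adjusted p = 0.0352) of mutant leaves on -Fe. Those arrays take no part in the contrast and enter only through the common spread. On -Fe it was 0.41 ± 0.16 for bHLH115 (adjusted p = 0.1) and 0.29 for bHLH104 (adjusted p = 0.174), and that of bHLH115 was called without replicate 3 of mutant leaves on -Fe (0.53, adjusted p = 0.021) but fell to 0.26 without replicate 1 of Col leaves on -Fe (adjusted p = 0.254). For bHLH104 the alternatives ran from 0.17 to 0.38, with adjusted p from 0.0323 to 0.441. Among all probe sets 14.1% were called on +Fe and 11% on -Fe.

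The genes around the subgroup IVc factors were taken from 8 lists of 42 genes, of which 11 had a probe set of their own. A gene is called measured where the annotation used here names it. Many tested probe sets carry no gene name in it, so other listed genes may lie on those. Of the subgroup Ib genes, which these factors activate, 1 of 4 was measured, BHLH101, and it rose on -Fe in every tissue and genotype. Its mean in Col roots was -1.56 ± 0.381 on +Fe and 2.42 ± 0.345 on -Fe, a rise of 3.98 ± 0.18 (adjusted p = 2.79e-09). In Col leaves BHLH101 went from -2.33 ± 0.491 to 3.91 ± 0.038, a rise of 6.24 ± 0.30 (adjusted p = 1.53e-07). PYE, also a target, rose by 1.30 in Col roots, 1.11 in mutant roots, 1.95 in Col leaves and 1.48 in mutant leaves, with a highest adjusted p of 0.000628. In the same arrays the largest member difference between the media was 0.36, that of bHLH115 in mutant leaves.

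URI, the other measured gene of the 3 in subgroup IVb, was like the subgroup IVc genes not called in any iron response, with differences of 0.01 and 0.00 in Col and mutant roots and of -0.17 and -0.22 in leaves. bHLH20, 1 of 5 in the list of FIT and its partners, was not called either, with differences from -0.14 to 0.30. IMA1, a small peptide of the iron deficiency signal and 1 of 3 in its list, rose by 3.83 in Col roots, 2.71 in mutant roots, 5.96 in Col leaves and 5.66 in mutant leaves (highest adjusted p 2.5e-06).

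Of the 3 BRUTUS family ubiquitin ligases, BTSL1 and BTSL2 were measured. BTSL2 rose by 1.19 in Col roots and 1.18 in mutant roots and was not called in leaves (0.54 and 0.12). BTSL1 had a pair of probe sets that disagreed in leaves. Both rose in roots, by 2.13 and 2.17 in Col and by 2.18 and 2.11 in the mutant, but in leaves 262218_at rose by 2.25 in Col and 1.60 in the mutant while 262217_at differed by 0.72 (adjusted p = 0.0513) and -0.04.

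Of the 13 iron uptake and coumarin genes 4 were measured, and all 4 rose in the roots of both genotypes. They were F6'H1 and S8H, enzymes of coumarin synthesis, BGLU42, a glucosidase that acts on coumarin glucosides, and MTP8, a metal transporter of the vacuole. S8H rose by 5.15 in Col roots and 5.72 in mutant roots, MTP8 by 4.09 and 4.37, BGLU42 by 2.50 and 2.56, and F6'H1 by 1.69 and 1.60. None of the 4 was called in leaves, where F6'H1 differed by 1.50 in Col (adjusted p = 0.272) and the others by -0.10 to 0.27. None of the 9 genes in the list of targets repressed by ILR3 with PYE and none of the 2 MYB factors was measured by a probe set of its own.

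**Figure D4:**
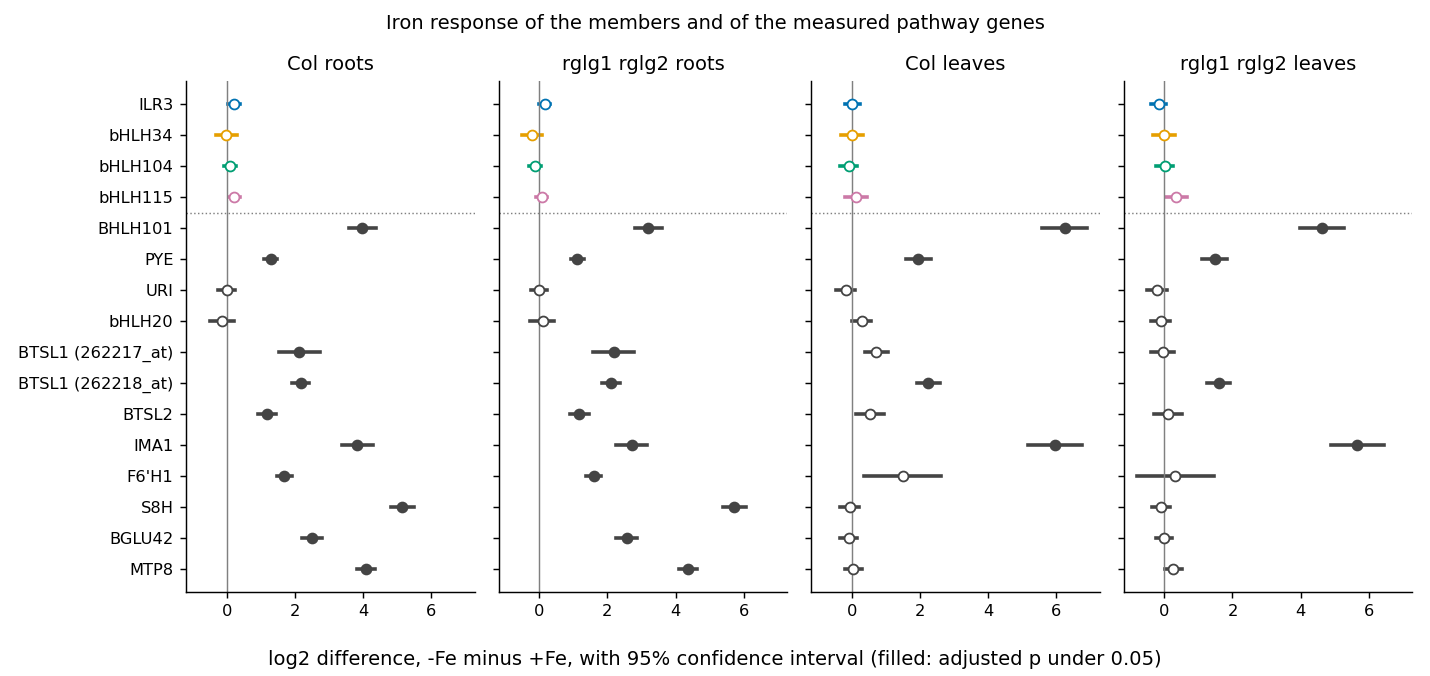
Log2 difference, -Fe minus +Fe, with its 95% confidence interval for the 4 members (above the dotted line) and the 11 measured pathway genes in the roots and leaves of both genotypes (filled points, adjusted p under 0.05). The members and URI sit near 0 in all panels, while BHLH101, PYE and IMA1 lie far to the right in each of them.

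The genotype difference of BHLH101 is set beside that of the members because they act on it. On -Fe BHLH101 was lower in the mutant by -1.99 ± 0.30 in leaves (adjusted p = 0.00216), from 3.91 ± 0.038 in Col to 1.92 ± 0.700, and this was called under all 18 alternatives run. In roots on -Fe it was lower by -0.82 ± 0.18 (adjusted p = 0.0247), and this was called in 12 of 18 alternatives, with adjusted p up to 0.175. On +Fe it differed by -0.04 in roots and -0.38 in leaves, neither of them called. BHLH101 was lower in the mutant in both organs on -Fe, and no member was called in either. In leaves on -Fe the members differed by 0.37 (bHLH115), 0.27 (bHLH104), 0.08 (bHLH34) and -0.06 (ILR3). In roots on -Fe they differed by -0.26 (ILR3, adjusted p = 0.0876), 0.16 (bHLH34), -0.02 (bHLH104) and -0.04 (bHLH115). Whether the member transcripts have a part in the BHLH101 difference was not tested. The genotype by iron interaction of BHLH101 was not called in roots (-0.78, adjusted p = 0.563) or leaves (-1.61, adjusted p = 0.936).

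Among themselves the 4 members correlated over all arrays, and much less once the tissue was taken into account. Over the 24 arrays the correlation of bHLH104 with bHLH115 was 0.95 and that of ILR3 with bHLH34, the lowest of the 6 pairs, 0.52. After the mean of each tissue was taken off, the 6 correlations lay between -0.28 and 0.28. These points share arrays and their normalization, and the values are a description.

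For each member the 3 single-gene probe sets with the highest correlation over the 24 arrays after the tissue means were taken off were listed. They were picked from among the 9869 probe sets that name 1 gene. The choice used these same arrays, so high values, also within each organ, follow in part from it and are a description. For bHLH115 they were AT5G66985 (0.92), AT3G07480 (0.88) and UBC27 (0.88), and for bHLH104 AT4G02550 (0.82), AT1G01670 (0.81) and AT1G50740 (0.79). For ILR3 they were AT3G09470 (0.80), AT3G20620 (0.78) and AT3G29270 (0.75), and for bHLH34 GSTU20 (0.78), AT4G02450 (0.77) and AT2G27390 (0.76). AT5G66985 followed bHLH115 in both organs, at 0.86 over the 12 root arrays and 0.94 over the 12 leaf arrays, while AT1G50740 followed bHLH104 more closely in leaves (0.85) than in roots (0.57). No other member and no gene of the pathway lists was among these 12.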

How the data were processed

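RNA from 8 groups of 3 samples was hybridised to Affymetrix ATH1 arrays. The deposited table holds log2 values, and the submitters' processing notes name RMA without a version. All 17854 probe sets had a median of 0 over the 24 arrays (within 1e-05), so no absolute level remains, and which arrays were normalized together is not given in the sources used here. After 44 controls were left out, 17810 probe sets were tested, of which 9869 name 1 gene and 353 several. The rest carry no gene name in the annotation used. For arrays, their number limits the precision.

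Models with 1 mean per group were fitted in limma 3.58.1 (R 4.3.3, lmFit and eBayes), on the 12 arrays of a tissue or, for contrasts of tissues, on all 24. P-values are two-sided and Benjamini-Hochberg adjusted within each comparison, with a threshold of 0.05. There were 16 planned comparisons and 2 added after the values were seen. The code was tested on simulated data. Every probe set of a member locus was described, list genes were named where measured alone, and the 3 most correlated genes were taken per member. Members and lists were chosen with earlier results of these data known. Gene names come from the platform annotation and TAIR10.1.

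The alternatives were quantile normalization, array weights, other sets of arrays in the fit, leaving out arrays and replicate blocks. The labels number replicates in every group. Deviations of equally numbered arrays correlated above 0.1 in all 3 pairs only between mutant leaves on +Fe and on -Fe (0.39 to 0.60), 1 of 28 pairs of groups, so a block within tissue and genotype was added.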

Additional observations from a re-analysis of the deposited data

How the results depend on the processing

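Of 1672 member values under alternatives, 1642 kept their side of the threshold, 23 passed it newly, 7 no longer passed it and 0 called values changed sign. Of those that were not called in either fit, 45 took the other sign. The 7 were all of bHLH34, leaves against roots in Col, and are given in the report. No member was called in the 4 iron responses, the 4 genotype differences or the interactions, and the counts that left 0 were these. Array weights called 1 member in the iron response of mutant roots, 1 in that of mutant leaves, 1 in the genotype difference of roots on -Fe, 1 in the tissue by iron interaction of the mutant, and 2 each in the genotype difference of roots on +Fe, of leaves on -Fe and in both tissue by genotype interactions. Without replicates 3 of the roots 1 was called in roots on +Fe, and without those of mutant leaves 1 in leaves on -Fe and 1 in the tissue by genotype interaction on -Fe. The fit of all 24 arrays called 2 in leaves on -Fe. With single arrays left out, the count ran from 0 to 1 in roots on +Fe, in leaves on -Fe and in both tissue by genotype interactions. The cause was not tested.

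With the replicate number as a block, the members called stayed at 0 in all comparisons within a tissue and in the interactions, and at 4, 4, 3 and 4 in leaves against roots. The block within tissue and genotype, run for the iron responses and interactions with iron, also gave 0 throughout, and changed no member's call.

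Counts over all probe sets moved more, with array weights highest in every comparison. The iron response called 921 in Col roots (514 to 1578 over the alternatives), 1266 in mutant roots (592 to 5097), 184 in Col leaves (90 to 766) and 76 in mutant leaves (38 to 1543). The genotype difference called 1913 in roots on +Fe (728 to 5634), 693 on -Fe (253 to 1921), 2557 in leaves on +Fe (925 to 8248) and 2840 on -Fe (1118 to 6628). The genotype by iron interaction called 3 in roots (0 to 393) and 0 in leaves (0 to 5). The tissue by iron interaction called 311 in Col (204 to 936) and 330 in the mutant (145 to 4333), and the tissue by genotype interaction 2519 on +Fe (1412 to 7885) and 1960 on -Fe (1003 to 5553). Signal over background cannot be read from centred values, so no member was checked for it.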
